A study of Mus musculus with 18 samples.

Results

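The 10 mature miRNAs described here come from the proximal end of the Dlk1-Dio3 locus, the stretch that holds the antisense transcript of Rtl1 and the beginning of Rian. They were taken by name from the deposited table, which lists 1966 miRNAs, and all 10 were found in it. Small RNA of 18 mouse tissues was sequenced. Wildtype adrenal glands of CRE - mice (AG, n = 3) served as controls. The TI tumors (n = 7) came from mice in which Dbh-driven iCRE switches on an IGF2BP1 transgene at the Rosa26 locus. Of these, 6 were IGF2BP1 +/+, CRE + and 1 was IGF2BP1 +/-, CRE +, and 1 of the 7 was labelled as a tumor of the adrenal gland. The TIM tumors (n = 8) carried the genotype IMP1/MYCN, CRE +. In these mice 1 Rosa26 allele holds IGF2BP1, also called IMP1, and the other holds MYCN. TIM and the IGF2BP1 +/+ tumors of TI thus also differ in the number of IGF2BP1 alleles. Of the TIM tumors, 5 were labelled tumor, 2 tumor of the adrenal gland and 1 tumor of the spine. The labels call both kinds of tumor neuroblastoma and give no ages. Dbh encodes dopamine beta-hydroxylase, so the recombinase acts in noradrenergic and adrenergic cells and their precursors, whereas AG is the whole gland with its cortex. Since bulk tissue was measured, fewer cells of a type and less RNA per cell cannot be told apart.

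Dlk1-Dio3 is an imprinted locus. The protein-coding genes Dlk1, Rtl1 and Dio3 are expressed from the paternal chromosome, and the non-coding RNAs Meg3, Rian and Mirg, together with the miRNAs, from the maternal one. Rtl1 is a retrotransposon-derived gene that is needed in the placenta, and the miRNAs read from its opposite strand match its mRNA fully and guide its cleavage. Each hairpin precursor is cut by Dicer into a 5p and a 3p arm, of which commonly one is kept by an Argonaute protein and the other is degraded. The locus is known for high miRNA levels in embryo, brain and neuroendocrine tissue.

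The 10 miRNAs stem from 9 hairpins, since both arms of miR-434 are among them. In GRCm38.p6 these hairpins lie on the plus strand of chromosome 12 between 109585789 and 109618336, a span of 32548 bp. The first are Mir337 (109585789 to 109585885) and Mir540 (109586080 to 109586146). In the GENCODE annotation of GRCm39, 5 hairpins (Mir431, Mir433, Mir127, Mir434 and Mir136) lie within the coding exon of Rtl1, on the strand opposite to it. The last, Mir341 and Mir370, fall into introns of Rian on the strand of that gene. Where Rtl1 begins and ends differs between annotations. The RefSeq gene of GRCm38.p6 (109564900 to 109604418) spans Mir337 and Mir540 and ends before Mir341, whereas the GENCODE gene leaves Mir337 and Mir540 outside and has Mir341 opposite an intron. The paper's shallow genome sequencing found frequent gains on chromosome 12 in TI tumors, where its text names Mycn but not Dlk1-Dio3. For TIM it names only gains on other chromosomes. Copy number at this locus was not tested here. The mature sequences from RefSeq (GRCm38.p6) are shown in the order of the locus, because the seeds, bases 2 to 8 in capitals, show how far these neighbours differ from each other.

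mmu-miR-337-5p: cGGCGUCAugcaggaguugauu
mmu-miR-540-3p: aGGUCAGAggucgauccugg
mmu-miR-431-5p: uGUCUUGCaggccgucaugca
mmu-miR-433-3p: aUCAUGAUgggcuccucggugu
mmu-miR-127-3p: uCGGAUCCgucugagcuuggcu
mmu-miR-434-5p: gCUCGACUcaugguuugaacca
mmu-miR-434-3p: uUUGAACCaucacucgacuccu
mmu-miR-136-5p: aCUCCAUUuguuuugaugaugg
mmu-miR-341-3p: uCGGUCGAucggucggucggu
mmu-miR-370-3p: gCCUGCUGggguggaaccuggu

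All 10 seeds differ, so neighbours on the locus are not members of one seed family. Of these miRNAs, only mmu-miR-540-3p shares its seed with another miRNA of the table, miR-6915-5p, which stayed at a mean of at most 0.0550 CPM in any group. Each mature sequence belongs to 1 hairpin in RefSeq. The 2 members from Mir434 can be compared directly, since they are made from the same precursor. The 8 remaining hairpins have 1 further arm each in the table. Those of Mir127 and Mir431 are shown as well, since they differed most from their partners within the Rtl1 exon.

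mmu-miR-127-5p: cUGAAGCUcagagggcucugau
mmu-miR-431-3p: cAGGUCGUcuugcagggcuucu

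Between 11641696 and 23435621 reads per library fell on miRNAs. Levels are given in CPM, that is, as reads scaled to a common library size, which the authors had multiplied by a TMM factor of 0.700 to 1.85. The factor was 0.927 to 0.991 in AG, 0.700 to 0.934 in TI and 0.802 to 1.85 in TIM. One miRNA, miR-148a-3p, took from 2.29% to 61.9% of the reads of a library, so levels depend on scaling. The TI library with 2.29%, here TI library 5, stands apart from the other TI libraries, which had at least 30.1%. Libraries are numbered in the order of the table's columns, which name the group but not the mouse. The limma test on log2(CPM + 1) covered the 726 miRNAs that reached 1 CPM or more in 3 or more libraries, and p-values were adjusted by Benjamini-Hochberg over all 726. All fold changes are on this scale, which understates those of low miRNAs. Over all tested miRNAs the median log2 fold change was -0.01 in TI and 0.18 in TIM against AG. It moved to -0.14 and 0.41 without the TMM factor, and to 0.31 and 0.53 once miR-148a-3p was taken out of the library totals. The calls over the whole table split into 192 higher and 213 lower in TI and into 185 higher and 188 lower in TIM. With miR-148a-3p taken out they split into 222 and 150 in TI and into 233 and 118 in TIM, and without the TMM factor into 206 and 141 in TIM.

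As a sum the 10 miRNAs were abundant in every tissue, and most of them were higher in the tumors. Together they made up 3.12% to 5.48% of all miRNA reads in AG, 4.62% to 12.6% in TI and 7.31% to 12.1% in TIM. In TI, 7 of the 10 rose, beside 26.4% of all tested miRNAs, and in TIM 6 of the 10 rose, beside 25.5%. None of the 10 fell, whereas 29.3% of all tested miRNAs fell in TI and 25.9% in TIM. All 10 passed the filter on low values, and each had at least 37.2 CPM in every library. The median log2 fold change over the 10 was 1.48 in TI and 1.34 in TIM. The mean of log2(CPM + 1) over the 10 was 9.72 ± 0.55 in AG (n = 3). It was 11.34 ± 0.43 for the 7 TI tumors and 11.21 ± 0.59 for the 8 TIM tumors (SD in each case). Its lowest TI value, 10.90, and its lowest TIM value, 10.17, lay above the highest AG value of 10.07. The 10 miRNAs lie in one locus and are not independent of each other.

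**Figure D1:**
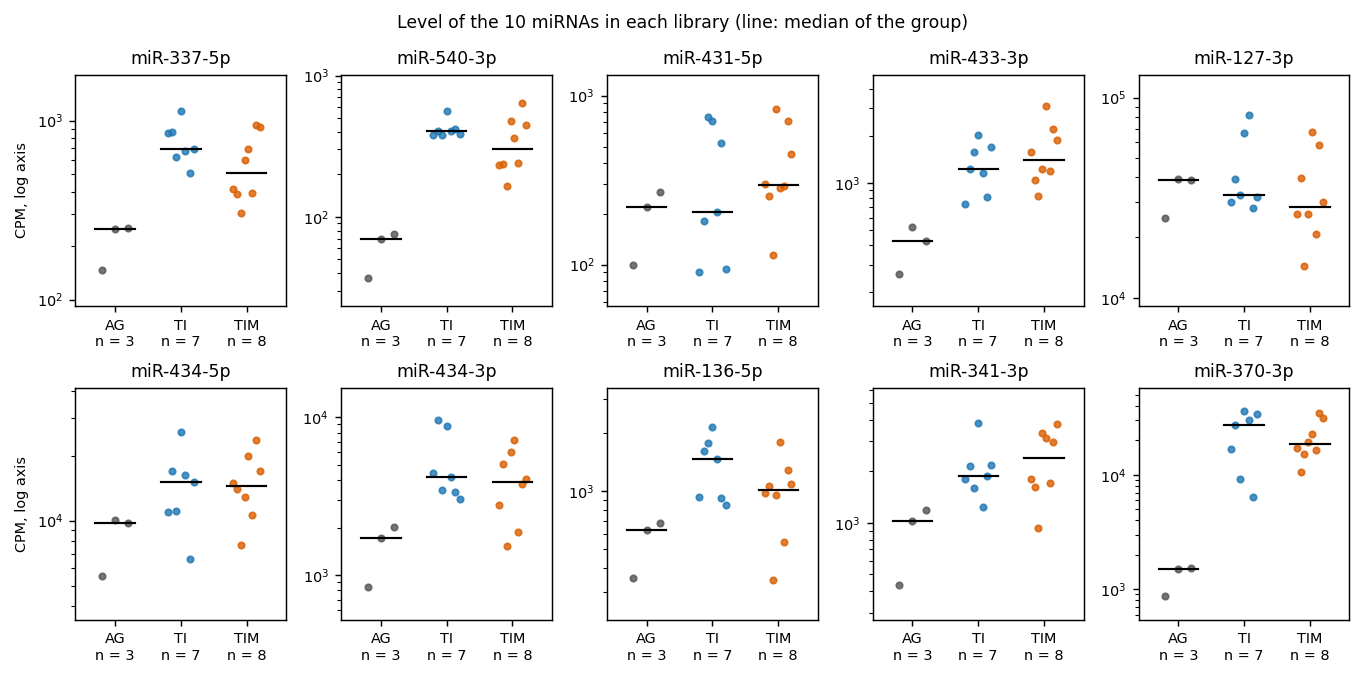
Each panel shows 1 of the 10 miRNAs in the order of the locus, with the level in CPM on a log axis, 1 point per library and a line at the median of the group. Levels of miR-370-3p lie far above AG in every tumor library, whereas those of miR-127-3p and miR-431-5p overlap with AG.

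AG library 1 was the lowest of the 3 AG libraries for all 10 miRNAs. Without it, the number that rose was 4 in TI, beside 20.1% of all miRNAs tested in that fit, and 4 in TIM, beside 16.2%, in both cases miR-337-5p, miR-540-3p, miR-433-3p and miR-370-3p. Without AG library 2 or 3 it was 7 in TI and 6 in TIM. TI library 5, which stands apart, did not carry these counts. Without it, 7 rose in TI, with log2 fold changes from 0.11 to 3.83 instead of 0.27 to 3.94. Among the tumors, TI library 4 was the highest TI library for 7 of the 10, and TIM library 3 the lowest TIM library for 9 of the 10. TIM library 3 had a TMM factor of 1.80. Its mean of log2(CPM + 1) over the 10 was 10.17 with the factor and 11.01 without it, the lowest of TIM in both cases.

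At the start of the group, miR-337-5p rose in both tumors. It had 147, 247 and 253 CPM in the AG libraries. Its TI levels ran from 508 to 1129 CPM with a median of 693, and its TIM levels from 305 to 941 CPM with a median of 509. Every tumor library thus lay above every AG library. The log2 fold change was 1.82 in TI (SE 0.36, adjusted p = 0.00040 from limma) and 1.36 in TIM (SE 0.35, adjusted p = 0.0041). Its neighbour miR-540-3p was the lowest of the 10 in AG, at 37.2, 69.4 and 75.2 CPM. In TI it was tightly grouped, from 378 to 564 CPM with a median of 407, while TIM spread from 166 to 635 CPM with a median of 301. These groups did not overlap with AG either. The log2 fold change was 2.82 in TI (SE 0.36, adjusted p = 4.33e-06) and 2.44 in TIM (SE 0.36, adjusted p = 1.91e-05).

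The miRNAs antisense to Rtl1 did not behave alike. The most abundant of the 10, miR-127-3p, did not pass the test in either tumor. It had 25015 CPM in AG library 1, 39296 in library 2 and 38879 in library 3. In TI it ran from 28038 to 81512 CPM with a median of 32455, and in TIM from 14486 to 67287 CPM with a median of 28269.6. The medians of both tumors were below 2 of the 3 AG libraries, and the groups overlapped widely. Its log2 fold change was 0.27 in TI (SE 0.44, adjusted p = 0.63) with a 95% interval from -0.65 to 1.19. In TIM it was -0.10 (SE 0.43, adjusted p = 0.87) with an interval from -1.0 to 0.80, and its sign turned with the scaling, to 0.25 without the TMM factor. The highest TI level belonged to TI library 5, and without that library the log2 fold change in TI was 0.11. With miR-148a-3p taken out of the totals it reached 0.80 in TI (adjusted p = 0.030), the only alternative that called it.

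Another guide of this exon, miR-431-5p, also did not pass the test. Its AG levels were 98.9, 219 and 268 CPM. TI ranged from 90.7 to 751 CPM (median 205) and TIM from 115 to 833 CPM (median 296). The TI libraries were spread on both sides of AG, with 3 above all AG libraries and 2 below all of them. The log2 fold change was 0.55 in TI (SE 0.69, adjusted p = 0.52) and 0.93 in TIM (SE 0.67, adjusted p = 0.26), with 95% intervals from -0.89 to 1.99 and from -0.48 to 2.34. Both intervals hold no change as well as a rise of the size seen for miR-433-3p.

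By contrast, miR-433-3p rose in both tumors without overlap. The AG libraries had 260.1, 522 and 427 CPM. Levels ran from 731 to 2021 CPM in TI (median 1222) and from 821 to 3073 CPM in TIM (median 1399). It rose by a log2 fold change of 1.68 (SE 0.40, adjusted p = 0.0019) in TI and 1.95 (SE 0.39, adjusted p = 0.00046) in TIM. For miR-136-5p the AG levels were 358, 632 and 688 CPM. Every TI library was above them, from 846 to 2150.0 CPM with a median of 1464, whereas TIM reached from 346 to 1797 CPM with a median of 1020.3 and so overlapped with AG. It rose in TI, by a log2 fold change of 1.28 (SE 0.43, adjusted p = 0.017), but not without AG library 1 (0.99, adjusted p = 0.12). In TIM the value was 0.76 (SE 0.42, adjusted p = 0.14), but it was called without the TMM factor (1.11, adjusted p = 0.018), with miR-148a-3p taken out of the totals (1.36, adjusted p = 0.0034) and without TIM library 3 (0.96, adjusted p = 0.040). The step from one tumor to the other, -0.52 (95% interval -1.20 to 0.16), did not pass the test (adjusted p = 0.35).

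The hairpin of miR-434 gave 2 of the 10. Its 3p arm had 835, 1721 and 2006 CPM in AG, 3049.9 to 9598 CPM in TI (median 4200.1) and 1526 to 7179 CPM in TIM (median 3910.5). TI did not overlap with AG, and 6 of the 8 TIM libraries lay above it. It rose in TI (1.74, SE 0.48, adjusted p = 0.0058) and in TIM (1.33, SE 0.48, adjusted p = 0.028). Without AG library 1 neither call held, with adjusted p = 0.056 in TI and 0.19 in TIM, and the call in TIM was also lost without the filter on low values (adjusted p = 0.070). The 5p arm was the second most abundant of the 10 in AG, at 5556, 10032 and 9728 CPM. It ran from 6614 to 25733 CPM in TI (median 15055) and from 7685 to 23533 CPM in TIM (median 14468). Most tumor libraries were above AG, 6 of 7 in TI and 7 of 8 in TIM. Its log2 fold changes of 0.73 in TI (SE 0.38, adjusted p = 0.11) and 0.81 in TIM (SE 0.38, adjusted p = 0.080) did not pass. Both were called once miR-148a-3p was taken out of the library totals, with median ratio scaling and with DESeq2 on the recovered reads, as was the value in TIM without the TMM factor. With 1 library left out, TI was called without TI library 6 (0.91, adjusted p = 0.039) and TIM without TIM library 3 (0.94, adjusted p = 0.041).

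Of the pair from Rian introns, miR-370-3p had the largest change of the 10. In AG it stood at 867, 1491 and 1531 CPM. It then reached 6397 to 35928 CPM in TI, with a median of 27396, and 10493 to 34675 CPM in TIM, with a median of 18401. Even the lowest tumor library, TI library 6, was well above the highest AG library. The mean CPM was 17.6-fold the AG mean in TI and 16.2-fold in TIM. On the log2 scale it rose by 3.94 in TI (SE 0.50, adjusted p = 3.27e-06) and by 3.96 in TIM (SE 0.49, adjusted p = 3.26e-06). Among all miRNAs of a library its rank by CPM was 54 to 72 in AG, 6 to 18 in TI and 7 to 19 in TIM. Its neighbour miR-341-3p changed less. AG had 436, 1021 and 1194 CPM, TI 1238 to 3836 CPM (median 1881) and TIM 930.1 to 3781 CPM (median 2381). All TI libraries and 7 of the 8 TIM libraries were above AG. It rose by 1.29 in TI (SE 0.43, adjusted p = 0.017) and by 1.44 in TIM (SE 0.42, adjusted p = 0.0096), and lost both calls without AG library 1 (adjusted p = 0.16 in TI and 0.11 in TIM).

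Counted by overlap alone, all TI libraries were above all AG libraries for 7 of the 10, where 22.0% of all tested miRNAs were so separated. In TIM this held for 4 of the 10, beside 21.1%. These were miR-337-5p, miR-540-3p, miR-433-3p and miR-370-3p, the ones that also stayed called without AG library 1.

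The make-up of the 10 differed between AG and the tumors. In AG, miR-127-3p was 70.6% to 74.4% of their summed CPM and miR-370-3p 2.58% to 2.78%. In TI the share of miR-127-3p was 35.6% to 59.6% and that of miR-370-3p 12.9% to 37.6%. In TIM the shares were 33.2% to 53.7% and 14.2% to 36.6%. No tumor library reached the AG range for either miRNA. The share of miR-434-5p overlapped between the groups, at 16.5% to 18.2% in AG, 11.8% to 17.5% in TI and 15.7% to 22.5% in TIM. Shares within a library do not depend on its scaling. They are shares of reads, and miRNAs differ in how well they are ligated and amplified.

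**Figure D2:**
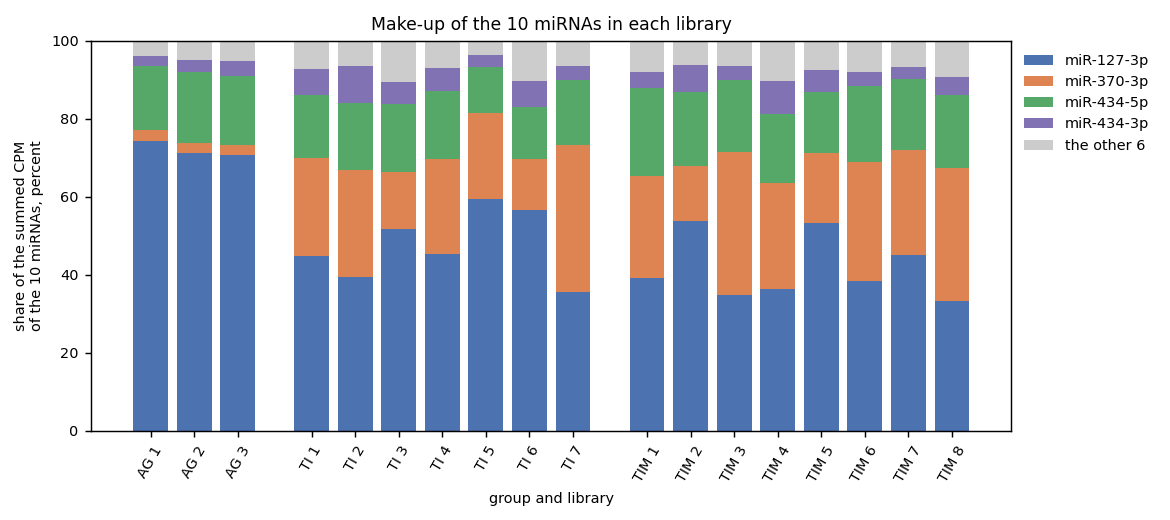
Each bar is 1 library, with the share of the summed CPM of the 10 miRNAs, in percent, that each of the 4 most abundant and the other 6 together make up. The blue part, miR-127-3p, is at least 70.6% in AG and at most 59.6% in the tumors, and the orange part, miR-370-3p, is at most 2.78% in AG and at least 12.9% in the tumors.

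Of the 8 other arms of these hairpins, 6 rose in TI, beside 26.4% of all tested miRNAs, and 6 in TIM, beside 25.5%. None of these arms fell, beside 29.3% of all tested miRNAs in TI and 25.9% in TIM. From the Mir127 hairpin, miR-127-5p had 346, 569 and 622 CPM in AG. It reached 1445 to 4365 CPM in TI (median 1852) and 803 to 2369 CPM in TIM (median 1673), above AG in every library. It rose by 2.10 in TI (SE 0.39, adjusted p = 0.00023) and by 1.68 in TIM (SE 0.38, adjusted p = 0.0015), while its partner miR-127-3p did not pass. A like contrast held for Mir431. The 3p arm, miR-431-3p, had 25.7, 43.8 and 34.9 CPM in AG, 111 to 429.7 CPM in TI (median 225) and 118 to 439 CPM in TIM (median 293). It rose by 2.82 in TI (SE 0.42, adjusted p = 2.38e-05) and by 2.91 in TIM (SE 0.42, adjusted p = 1.49e-05), while miR-431-5p did not pass.

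The other arms of Mir433, Mir341, Mir337 and Mir370 rose with their partners, those of Mir341 and Mir337 not under every setting. Of these, miR-433-5p and miR-337-3p are rare, with means of 4.09 and 3.22 CPM in AG, and miR-341-5p had 5.65 CPM. The log2 fold changes were 2.45 in TI and 2.91 in TIM for miR-433-5p, 2.26 and 1.58 for miR-337-3p, 1.46 and 1.81 for miR-341-5p, and 2.62 and 2.60 for miR-370-5p. For miR-341-5p the call in TI (adjusted p = 0.048) held under 5 of 10 alternatives and in 6 of 18 fits with a library left out, and was lost without any one of the AG libraries. Its call in TIM was lost without AG library 1 (adjusted p = 0.13). For miR-337-3p the call in TIM (adjusted p = 0.038) held under 8 of 10 alternatives, not with a pseudocount of 5 or without the filter, and in 12 of 18 fits with a library left out. It was lost without any one of the AG libraries and without TIM library 2, 4 or 8, where its log2 fold change was 1.33 to 1.82. The 2 arms that did not pass were miR-136-3p and miR-540-5p. The former is the more abundant arm of its hairpin, with log2 fold changes of 0.89 in TI (adjusted p = 0.064) and 0.41 in TIM (adjusted p = 0.39). With miR-148a-3p taken out of the totals miR-136-3p was called in TI (1.42) and in TIM (1.01), and in TI also with median ratio scaling, with DESeq2, and without TI library 7 or TIM library 3. For miR-540-5p the values were 1.01 in TI (adjusted p = 0.20) and -0.27 in TIM (adjusted p = 0.74), the TIM value with a sign that turned to 0.22 once miR-148a-3p was taken out of the library totals. Its 2 highest levels, 59.1 and 44.9 CPM, were those of TI libraries 3 and 6, and the other TI libraries had at most 12.4 CPM.

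**Figure D3:**
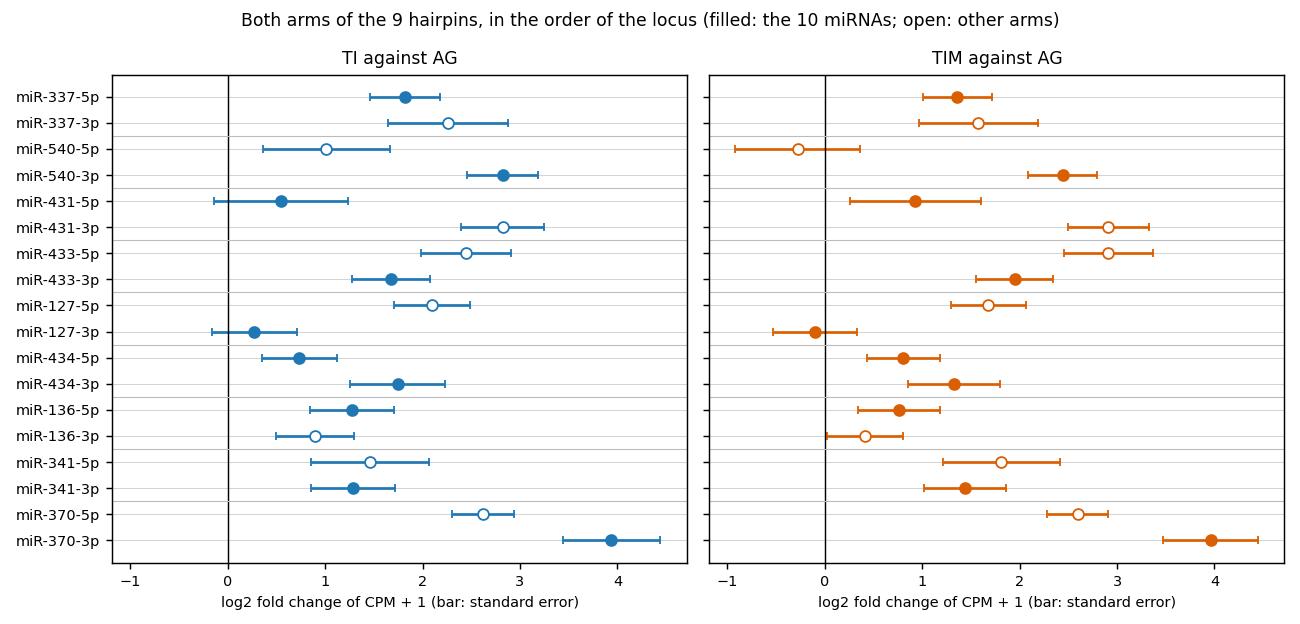
Log2 fold changes of CPM + 1 with standard errors for both arms of the 9 hairpins in the order of the locus, TI against AG on the left and TIM against AG on the right. Filled points are the 10 miRNAs and open points the other arms, and the arms of Mir431 lie far apart, with miR-431-3p at 2.82 and 2.91 and miR-431-5p at 0.55 and 0.93.

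The difference between the arms was tested itself, as the log2 ratio of the 5p to the 3p arm within a library (1 CPM added to both), which does not depend on scaling apart from the added 1 CPM. Two-sided exact permutation tests were made for 9 hairpins in 3 comparisons, and the 27 p-values were adjusted together. Of 120 arrangements for TI and 165 for TIM, the smallest p possible is 0.017 and 0.012. No ratio passed an adjusted p under 0.05. However, 9 of the 27 tests were at the smallest p and had an adjusted p of 0.05, the lowest that was reached. They were the ratios that did not overlap with AG, 4 of 9 in TI and 5 of 9 in TIM. Among the 185 miRNAs of the table that had both arms, each at a mean of 1 CPM or more, 30.3% were so separated in TI and 25.4% in TIM.

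For Mir127, the ratio lay closer to the 5p arm in the tumors, from -6.08 ± 0.11 in AG (mean ± SD, n = 3) to -4.26 ± 0.67 for TI (n = 7) and -4.30 ± 0.44 for TIM (n = 8). In percent, the 5p arm was 1.36% to 1.58% of both arms in AG, 1.96% to 8.11% in TI and 3.38% to 7.49% in TIM. The lowest tumor value belonged to TI library 5. For Mir431, it lay closer to the 3p arm, from 2.37 ± 0.50 in AG to 0.10 ± 1.30 in TI and 0.39 ± 0.58 in TIM. The 5p arm was 79.4% to 88.5% in AG and the major arm in every AG library, against 28.8% to 75.6% in TI and 41.6% to 66.3% in TIM. For Mir136, the difference was small but without overlap in both tumors, from 25.0% to 26.7% of 5p in AG to 28.3% to 38.1% in TI and 27.8% to 35.3% in TIM. These 3 hairpins all lie opposite the Rtl1 exon, as do Mir433 and Mir434. The ratio of Mir434 overlapped with AG in TIM, and that of Mir433 did so only with the 1 CPM added.

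The ratio of Mir433 lay above AG in every TI library, with a mean difference of 0.77 on the log2 scale. In TIM, library 5 lay within the AG range (difference 0.96, exact permutation test, adjusted p = 0.065). Without the added 1 CPM, neither tumor overlapped with AG for Mir433. The 5p arm was then 0.71% to 1.14% of both arms in AG, 1.30% to 2.59% in TI and 1.29% to 2.97% in TIM. For Mir540 and Mir370 the ratio was below AG in every TIM library, with mean differences of -2.72 and -1.36 on the log2 scale, that is, toward the 3p arm. In TI, 5 of the 7 libraries were below AG in both ratios. TI libraries 3 and 6 were not, with -2.66 and -3.20 for Mir540 beside an AG range of -3.25 to -2.70, and -5.83 and -5.89 for Mir370 beside an AG range of -5.94 to -5.79. The same libraries had the lowest miR-370-3p levels of TI, 9227 and 6397 CPM. These levels enter the Mir370 ratio as its 3p arm, so they are not a separate observation. Their miR-370-5p levels, 160.8 and 107.0 CPM, lay within the range of the other TI libraries, 84.2 to 161.9 CPM. In TI the adjusted p was 0.21 for both hairpins (exact permutation test), beside 0.05 for the ratios without overlap, which did not pass either. For Mir434 the ratio differed by -1.01 on the log2 scale in TI with overlap (exact permutation test, adjusted p = 0.082) and differed by -0.52 in TIM (exact permutation test, adjusted p = 0.29). Mir337 and Mir341 were spread on both sides of AG in both tumors.

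**Figure D4:**
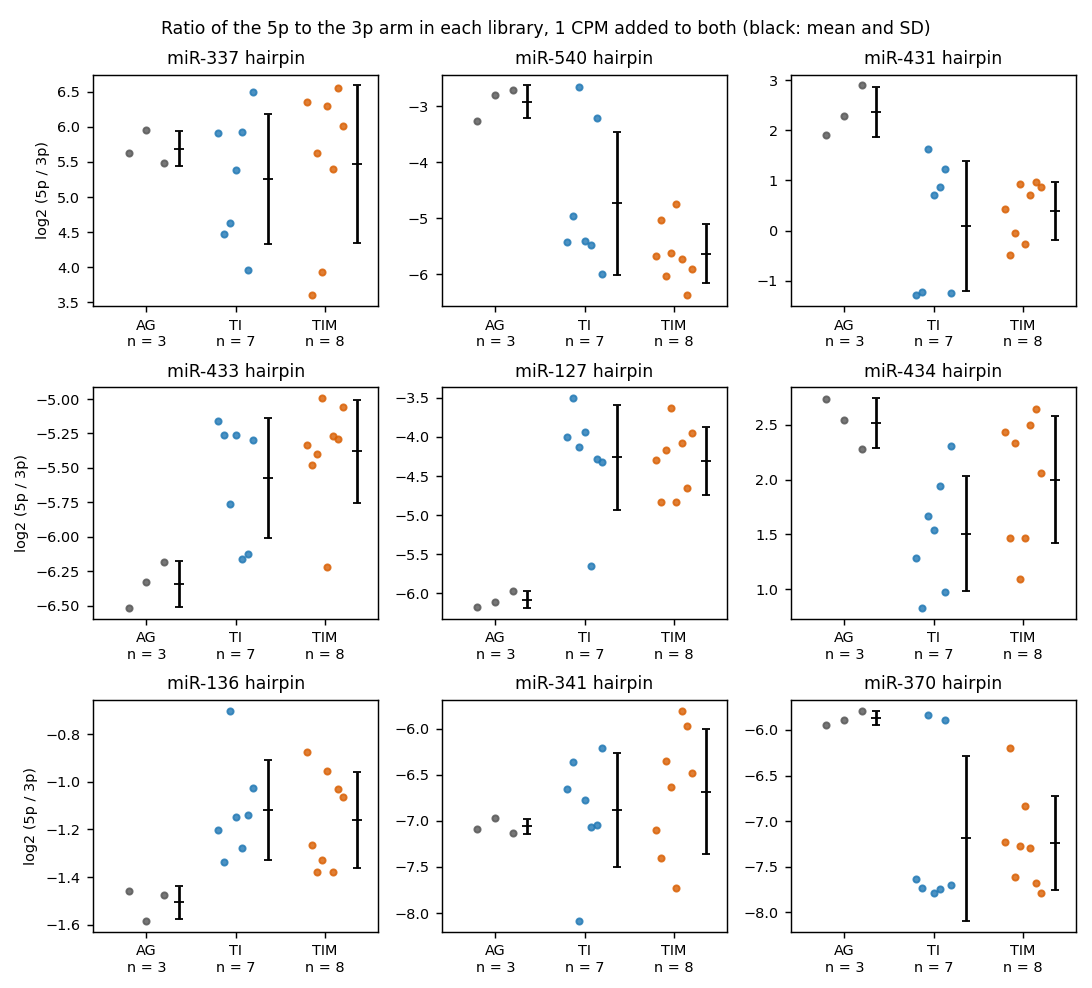
Each panel shows 1 hairpin, with the log2 ratio of the 5p to the 3p arm in each library, and the mean and SD of the group in black. All tumor points of miR-127 lie above AG and all of miR-431 below it, and for miR-540 and miR-370 a pair of TI points lies at the AG level, those of libraries 3 and 6.

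The tumors were not told apart by these miRNAs. None of the 10 passed the limma test between TIM and TI, beside 5.23% of all tested miRNAs, and none had an unadjusted p under 0.05. edgeR and DESeq2 on the recovered reads also called none, whereas limma without the TMM factor called miR-433-3p, at a log2 difference of 0.83. The log2 differences of TIM from TI ran from -0.52 for miR-136-5p to 0.38 for miR-431-5p, with a median of -0.17. The 95% intervals reached at most from -1.20 to 1.46, so this number of tumors does not show that their levels are alike. For miR-370-3p the difference was 0.02 (95% interval -0.75 to 0.80). Since TI and TIM were compared with the same AG libraries, their changes against AG are not independent of each other.

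Within the tumors the 10 miRNAs mostly varied together. As a description, Pearson's r of log2(CPM + 1) was positive for 42 of 45 pairs over the 7 TI libraries, with a median of 0.52, and for 45 of 45 pairs over the 8 TIM libraries, with a median of 0.74. The lowest value in TI, -0.43, was that of miR-431-5p and miR-370-3p. The highest in TIM, 0.94, was that of the neighbours miR-337-5p and miR-540-3p. All values of a library share its scaling, which adds to such correlations.

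In the rest of the locus, most of the miRNAs that changed were also higher in the tumors. Over all tested miRNAs, 26.4% rose and 29.3% fell in TI, and 25.5% rose and 25.9% fell in TIM. Of 17 further proximal miRNAs in the table, 12 passed the filter on low values, 7 rose in TI, 7 rose in TIM and none fell. The most abundant were miR-770-3p, with means of 155 CPM in AG, 1533 in TI and 2316 in TIM, and miR-673-3p, with 34.2, 91.2 and 119.7 CPM. Both rose, miR-770-3p by 3.16 in TI (SE 0.63, adjusted p = 0.00044) and 3.70 in TIM (SE 0.62, adjusted p = 7.44e-05), and miR-673-3p by 1.30 (SE 0.46, adjusted p = 0.023) and 1.58 (SE 0.45, adjusted p = 0.0079). Of 75 distal miRNAs of the locus, 68 passed the filter. Of these, 56 rose in TI and 51 in TIM, while 0 fell in TI and 1 in TIM. The most abundant, miR-381-3p and miR-379-5p, differed from each other. The former had means of 2962 CPM in AG, 26024 in TI and 22541 in TIM and rose by 3.15 (SE 0.35, adjusted p = 8.56e-07) and 2.90 (SE 0.34, adjusted p = 2.25e-06). The latter had 13235, 18099 and 15801 CPM and log2 fold changes of 0.44 (SE 0.34, adjusted p = 0.28) and 0.21 (SE 0.34, adjusted p = 0.63). These lists were chosen with earlier results of these data known.

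Outside these lists, the miRNA most like the mean over the 10 was miR-496a-3p, with r = 0.91 over the 18 libraries among the 319 others whose mean reached 10 CPM. Its mature sequence lies on chromosome 12 of GRCm38.p6 from 109739165 to 109739186, within Mirg, thus in the same locus, although it is not on the distal list. Next came miR-344b-3p (0.90), miR-218-5p (0.85), miR-344-3p (0.83) and miR-325-3p (0.82), from chromosomes 7, 5 and 11, 7, and X. The libraries of 3 groups enter these values, so they mainly follow the step from AG to tumor. Over the 15 tumor libraries alone, r was 0.75 for miR-496a-3p and 0.37 to 0.69 for the other 4.

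Markers of cell types moved with the groups too, and their part in these results was not tested. The neuronal markers miR-124-3p, miR-9-5p and miR-9-3p, summed, had 367 to 592 CPM in AG, 3799 to 13346 in TI and 5079 to 18944 in TIM, and all 3 rose in both tumors. Both endothelial markers (the arms of miR-126a) fell in each tumor, with sums of 38529 to 46092 CPM in AG, 1704 to 6736 in TI and 2428 to 8943 in TIM. Of the 3 fibroblast markers (both arms of miR-199a, miR-214-3p), 3 fell in TI and 2 in TIM, with sums of 1973 to 3125 CPM in AG, 330.4 to 1549.5 in TI and 225 to 1253 in TIM. Of the 5 leukocyte markers, 3 fell in TI and 4 in TIM, with 427 to 620.4, 53.5 to 348 and 69.5 to 215 CPM. Of the 2 smooth muscle markers (miR-143-3p, miR-145a-5p), 1 fell in TI and 2 in TIM, with 121198 to 209015, 15784 to 171131 and 16014 to 101007 CPM.

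No marker of the remaining lists passed. The neuroendocrine markers miR-7a-5p and miR-375-3p had 44909 to 107677 CPM in AG, 25729 to 246328 in TI and 32236 to 228674 in TIM. The erythroid markers had 695 to 2420.0, 339.8 to 4354 and 169 to 2533 CPM. The skeletal muscle markers had 175 to 207 CPM in AG, 46.6 to 344 in TI and 77.4 to 22972 in TIM, where the highest value is that of TIM library 1 alone. That library was neither the lowest nor the highest of TIM for any of the 10. No marker was at 0 in any library.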

How the data were processed

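Per the labels, the tissues were extracted with TRIzol before small RNA sequencing by the authors, whereas the paper's methods name the Qiagen AllPrep kit for tumors and organs. Per the paper's methods, reads were aligned with Bowtie2 to mm10 and scaled with edgeR. The submitters' processing notes name cutadapt 2.8, Bowtie2 2.3.5.1, featureCounts 2.0.0 and edgeR 3.40, without their roles. What the authors deposited is, for each mature miRNA, a signal in CPM on TMM-scaled library sizes. The authors also deposited 9 columns of their own comparisons (log2 fold change, p-value, FDR), which were not used. All values (100%) were whole reads within 0.01. A level of 3 reads equals 0.101 to 0.272 CPM, which covers counting error only, and no 2 libraries were identical.

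The members and all lists were chosen with earlier results of these data known. The main test was limma 3.58.1 in R 4.3.3 (lmFit, eBayes with trend) on log2(CPM + 1), fitted once to the 18 libraries of the 3 groups, with calls at an adjusted p below 0.05. Replicates are separate samples, and nothing in the columns ties them to mice, so p-values measure the spread between these samples. Arm ratios were tested by exact permutation (Python 3.11.15, numpy 2.4.6, scipy 1.17.1), doubling the smaller tail. Named were all 10 members, the other arm of each hairpin, the 2 most abundant of each further list of the locus, and the 5 miRNAs most like the mean over the 10. Alternatives were pseudocounts of 0.1 and 5, other scalings and filters, each library left out, and edgeR 4.0.16 and DESeq2 1.42.0 on the recovered reads, which called 402 and 437 miRNAs in TI and 352 and 423 in TIM (limma 405 and 373). miR-3544 and miR-3071 overlap Mir337 and Mir136 on the other strand, and whether counting used the strand is not given in the sources used here.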

Additional observations from a re-analysis of the deposited data

Results flagged for a closer look

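In 4 of 56 groups of 7 or 8 libraries, 1 library stood apart by Dixon's test, where chance flags about 1 group in 20. These were miR-540-3p in TI with 564 CPM and miR-341-3p in TI with 3836 CPM, both in TI library 4, the highest TI library for 7 of the 10 miRNAs. The ratio of 5p to 3p of Mir127 in TI was lowest in library 5, at -5.64 beside -4.32 for the next. That of Mir433 in TIM was lowest in library 5, at -6.22 beside -5.48 for the next.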

How the results depend on the processing

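The groups come from mice of different genotypes, so the comparisons were not paired. None of the table's columns gives a replicate number. Of 10 alternatives, none moved the number of the 10 miRNAs called against AG by more than 1.5 times (7 to 9 in TI, 5 to 8 in TIM). With 1 library left out it was 4 to 8 in TI and 4 to 8 in TIM, lowest without AG library 1. Of all tested miRNAs, 227 to 384 were then called in TIM against AG, lowest without the same library, and 24 to 68 between TIM and TI.

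Between TIM and TI, 38 miRNAs were called, but 21 with a pseudocount of 5, 21 without a filter, 17 with the filter at 10 CPM, 23 when the third group was kept out of the model, 155 without the TMM factor, 3 with edgeR and 123 with DESeq2. Without the TMM factor 1 of the 10 was called between TIM and TI, miR-433-3p (0.83, adjusted p = 0.037). The mean over the 10 rose from 1.49 to 2.08 in TIM against AG when miR-148a-3p was taken out of the totals.

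The number of arm ratios under an adjusted p of 0.05 was 0 in each comparison. It became 4 in TI and 6 in TIM with a pseudocount of 0.1, 5 and 5 with a pseudocount of 5, and 1 and 4 with the p from the absolute difference. With 1 library left out it was 0 to 4 in TI and 0 to 6 in TIM, highest without TIM library 5. The adjustment runs over all comparisons, and 9 p-values lie at the threshold.

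Signs turned for small values. For miR-127-3p in TIM against AG (-0.10) the value was 0.25 without the TMM factor, 0.50 with miR-148a-3p taken out, and -0.31 to 0.061 with 1 library left out. For miR-540-5p (-0.27) it was 0.22 with miR-148a-3p taken out and -0.76 to 0.019 with 1 library left out. Between TIM and TI, the values without the TMM factor were 0.19 for miR-127-3p, 0.14 for miR-434-3p, 0.038 for miR-136-5p, 0.094 for miR-337-5p and 0.17 for miR-540-3p, all negative with it. For miR-434-5p the value was -0.0025 with DESeq2 and -0.10 to 0.23 with 1 library left out. For miR-370-3p it was -0.038 with median ratio scaling, -0.083 with edgeR, -0.12 with DESeq2, and -0.24 to 0.17 with 1 library left out. With 5 CPM added to both arms, the ratio of Mir337 differed by 0.24 in TI and 0.29 in TIM, and that of Mir341 by -0.23 and -0.10. That of Mir337 in TIM ran from -0.37 to 0.049 with 1 library left out. The causes were not tested.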
